A study of Mus musculus with 15 samples.

Results

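The effect of a miR-181 vector on the substantia nigra was measured by comparing the injected and the uninjected side of the same mice. The 6 libraries came from 3 C57Bl/6J mice, of 15 libraries in the series. The members were the 3 injected and 3 uninjected nigra columns of the miR-181 table, taken by their labels, with no measured value used to choose them. An adeno-associated virus (AAV) named AAV-hSYN1-miR-181 was placed stereotaxically in the nigra on 1 side at 1.65e10 vector genomes, and tissue was taken after 3 weeks. The opposite nigra received no injection, so it controls for the animal and not for the needle, the capsid or the dose. The hSYN1 (human synapsin) promoter acts in neurons, whereas the libraries hold RNA of all cells of the dissected piece. Mice were described as naive; age, sex and the miR-181 family member in the vector are not given in the sources used here. Another set of 5 mice received AAV-hSYN1-GFP, a green fluorescent protein vector, at 1e10 vector genomes. Of these mice 4 gave both sides, and their values are set beside those of the miR-181 mice where useful. The vector, its dose, the library set and the sequencer differ together between the sets and cannot be told apart.

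MicroRNAs pair through a short seed near their 5′ end with sites in the 3′ untranslated region (UTR) of messenger RNAs, and the RNAs so bound are repressed or degraded. The miR-181 family is abundant in brain and in lymphocytes, and its reported targets include regulators of cell survival and of signalling. Interferons act through receptors, JAK kinases and STAT and IRF factors on a large set of antiviral and antigen presentation genes, and microglia, astrocytes and invading leukocytes all carry this response.

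The 4 mature forms of the family share their seed, so the vector's product can be described by it whichever member was used. Below, bases 2 to 8 of each RefSeq mature sequence (GRCm38.p6) are in capitals. The a and b forms are each encoded at chromosomes 1 and 2 (the mature form of Mir181a-1 at chr1:137966468-137966490, plus strand), and the c and d forms on chromosome 8 (that of Mir181c at chr8:84178924-84178945, minus strand).
mmu-miR-181a-5p: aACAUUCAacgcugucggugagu
mmu-miR-181b-5p: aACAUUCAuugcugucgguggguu
mmu-miR-181c-5p: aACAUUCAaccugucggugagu
mmu-miR-181d-5p: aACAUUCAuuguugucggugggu

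The DNA letters that pair with this seed are TGAATGT. The shifted form GAATGTA pairs with bases 2 to 7 and ends in a fixed A, which does not pair with the microRNA. Both together make what is called here an 8-base match, TGAATGTA, whose last A is likewise unpaired. Sites from the 3′ UTRs of genes that fell are shown next (GRCm38, GENCODE M21 longest annotated 3′ UTR, sense strand, match in capitals). Entpd6, a nucleotide diphosphatase, holds 3 matches within 948 bases of 3′ UTR, at chr2:150771188-150771216, chr2:150771466-150771495 and chr2:150771595-150771624 (plus strand). Cbx7, a Polycomb chromatin protein, holds a pair of 8-base matches on chromosome 15, at chr15:79916287-79916316 and chr15:79915980-79916009 (minus strand). Carm1, an arginine methyltransferase, holds its match at chr9:21588862-21588891 (plus strand).
Entpd6 site a: ggagcacatctTGAATGTggccatctctt
Entpd6 site b: ctatgtcccagTGAATGTAttcctgctatg
Entpd6 site c: ggtcccctcagTGAATGTAcagttcataaa
Cbx7 site a: ccctgcatattTGAATGTAgaggttgggtt
Cbx7 site b: ttcagacgaccTGAATGTAttgggaggaat
Carm1 site: cacctcaaactTGAATGTAcaaaccaccca

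The promoters of interferon genes that rose are represented by stretches that hold the motif GAAANNGAAA, known as part of the element bound by interferon-activated factors. RefSeq windows ran from 250 bases before to 50 after the gene start (GRCm38.p6). The motif, in capitals, was read on both strands, so Gbp2 shows its complement. Igtp and Irgm2, neighbouring genes for immunity-related GTPases, carry nearly the same stretch, at chr11:58199512-58199541 and chr11:58214903-58214932 (plus strand). Gbp2 has it at chr3:142620594-142620623 (plus strand), Bst2 at chr8:71537577-71537606 and Trim21 at chr7:102565444-102565473 (both minus strand). The windows of Bst2 and Trim21 each hold a further, overlapping copy of the motif.
Igtp: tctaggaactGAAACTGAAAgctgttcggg
Irgm2: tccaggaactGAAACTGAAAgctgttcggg
Gbp2: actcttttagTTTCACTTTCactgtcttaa
Bst2: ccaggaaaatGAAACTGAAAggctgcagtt
Trim21: agaggaaactGAAAGTGAAAtttggactgc

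The deposited values are normalized transcript abundances, read here as scaled transcript abundance (TPM) divided by a size factor, and they keep no record of sequencing depth. Their sums ran from 985020 to 1004323 per library, and between 15152 and 15563 genes reached a value of 1. Replicates correlated at 0.963 to 0.986 across genes. Nigral tissue was present on both sides of each mouse: tyrosine hydroxylase (Th) was at or above 171 and the dopamine transporter Slc6a3 at or above 173 in all 6 libraries. In bulk tissue, fewer cells of a type and less RNA per cell cannot be told apart. In the GFP set, the pituitary hormones Prl and Gh made up 4.7% of the uninjected library of mouse 1, so GFP averages include a library with other tissue in it.

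In the miR-181 mice, 15453 genes averaging 1 or more across both sides were tested with limma on log2(value + 0.5). A gene averaging below 1 on the uninjected sides could pass this filter only through higher injected values, which fixed its direction. Counts and medians of lists that hold such genes are to be read with this limit. At a Benjamini-Hochberg adjusted p under 0.05, called here, 678 genes were higher on the injected side (4.39% of those tested) and 230 lower (1.49%). Higher calls were thus 74.7% of all, and 57.5% (634 of 1102) when each library was centred on its median. The rises were large and the falls small. The median called rise was 1.49 on the log2 scale and the median called fall was -0.42. Of the higher genes, 453 passed a 2-fold change, 226 a 4-fold and 111 an 8-fold change, against 5, 3 and 2 of the lower genes. A change of sides without overlap was common: the 6 values of 4720 genes (30.5% of those tested) separated by side, including all 908 called genes. An unadjusted p under 0.05 was reached by 3631 genes (23.5%), the share against which such counts in the gene lists are to be read.

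**Figure D1:**
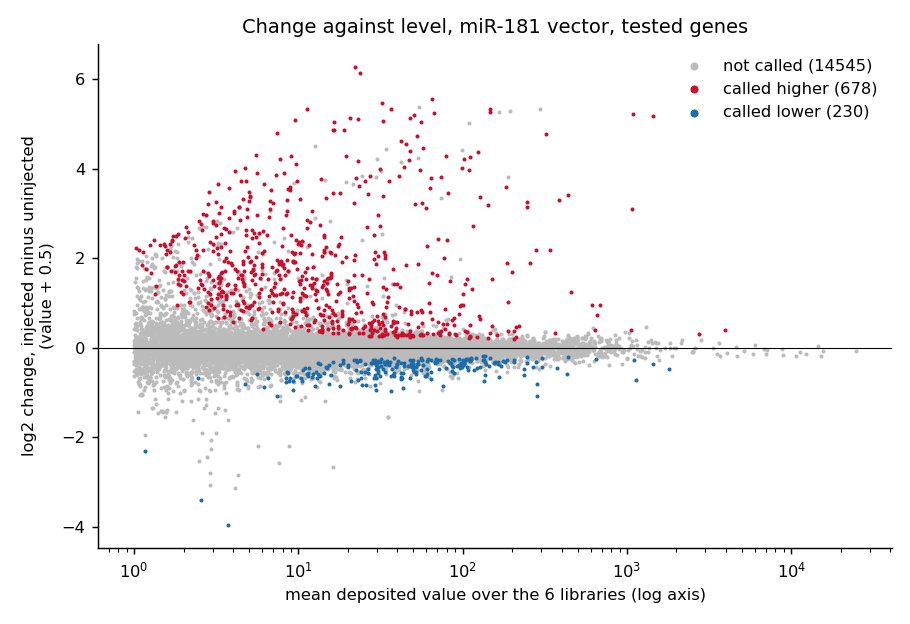
Each point is 1 of the 15453 tested genes, with the mean deposited value over the 6 libraries on a log x axis and the log2 change (injected minus uninjected, value + 0.5) on the y axis. The 678 genes called higher (red) reach 6.28, while all but 5 of the 230 genes called lower (blue) stay within 2-fold.

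The 3 mice differed in the size of the change. Among the genes called higher the median log2 change was 1.05 in mouse 1, 1.92 in mouse 2 and 1.47 in mouse 3. Among the genes called lower it was -0.30, -0.53 and -0.41. The change was largest in mouse 2 for 576 of the 678 higher and 185 of the 230 lower genes, and smallest in mouse 1 for 569 and 187. Over all tested genes the changes of a pair of mice correlated at 0.606 (mice 1 and 2), 0.547 (1 and 3) and 0.718 (2 and 3), as a description across genes. Without the injected library of mouse 1 there were 1210 calls higher and 714 lower. Leaving out injected mouse 2 gave 395 and 116, injected mouse 3 gave 175 and 23, and uninjected mice 1, 2 and 3 gave 129 and 10, 113 and 4, and 171 and 9. Calls that held in each of the 6 fits with 1 library left out numbered 107 higher and 3 lower. With mouse as a block, 570 genes were called higher and 148 lower, of which 515 and 111 were also called without it. The main fit has no term for mouse, so its p-values measure the spread between the libraries of a side and do not use the pairing. With or without the block they rest on 3 mice.

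Upstream in the interferon pathway a smaller share of the receptor, kinase and feedback genes was called than of the transcription factors. Of 11 tested receptor, JAK kinase and feedback genes 3 were called higher (27.3%, against 4.39% of all tested genes) and 0 lower. All 11 changes were above 0, with a median of 0.35, against 0.00 over all tested genes. With limma 8 had an unadjusted p under 0.05 (23.5% over all genes). Ifngr1, a chain of the interferon gamma receptor, stood at 17.9, 19.6 and 19.8 on the uninjected sides of mice 1, 2 and 3 and at 24.9, 28.3 and 24.8 on the injected sides (log2 change 0.44 ± 0.08, SE, limma adjusted p = 0.0264). Usp18, an inducible inhibitor of interferon signalling, rose from 3.58, 3.12 and 2.99 to 14.1, 68.7 and 66.6 (3.45 ± 0.57, adjusted p = 0.0215). As in all called genes, the sides did not overlap for either gene, and the rise of Usp18 was smallest in mouse 1. The list gave 6 calls without injected mouse 1 and 0 without any other library.

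Of 14 tested STAT and IRF factors 9 were called higher and 0 lower, with a median of 1.30 (log2) and mouse medians of 0.77, 1.85 and 1.29. Without injected mouse 1 or 2 the calls were 11 and 8, and 3 without any other library. Irf1, an interferon-induced transcription factor, went from 7.06, 7.6 and 7.86 to 35.7, 78.6 and 50.1 (log2 change 2.72 ± 0.26, SE, n = 3 mice; limma adjusted p = 0.00398). Irf8, a factor of microglia and other myeloid cells, went from 5.59, 5.49 and 5.11 to 18.3, 36.8 and 23.7 (2.13 ± 0.23, adjusted p = 0.00595). Uninjected values of both genes were nearly alike between mice, and the injected sides ran in the order mouse 1, mouse 3, mouse 2. Both kept their call in each of the 6 fits with 1 library left out. In the GFP mice the mean log2 change of Irf1 was 0.99 ± 0.17 (SD, n = 4), and the difference between the sets was not called (adjusted p = 0.0707).

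Effectors that act inside infected cells had the highest medians of the 48 gene lists. All 10 tested immunity-related GTPases, which attack vacuoles of intracellular pathogens, were called higher, with a median of 4.05 and changes from 1.93 to 5.27. All 10 tested guanylate-binding proteins were called higher as well, with a median of 3.43. Igtp had values of 5.56, 6.03 and 7.46 on the uninjected and of 157, 441 and 261 on the injected sides (log2 change 5.27 ± 0.34, limma adjusted p = 0.00225). Iigp1 had values of 1.72, 1.75 and 2.53 and of 49.3, 145 and 104 (5.20 ± 0.37, adjusted p = 0.00225). Gbp2 had values of 4.54, 3.63 and 5.86 and of 42.4, 104 and 86.3 (3.84 ± 0.33, adjusted p = 0.00303). In each of these genes the sides lay far apart, and mouse 1 had the lowest injected value. Members of both families resemble each other in sequence, so reads may be shared between them. Over the same members the medians in the GFP mice were 1.73 and 1.20.

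Ifit, Oas and ISG15 genes, which sense or block viral RNA or conjugate ISG15, were called higher in 15 of 18 cases, with a median of 2.55. Oasl2 moved from 8.53, 7.7 and 10.2 to 70.2, 298 and 268 (4.27 ± 0.52, limma adjusted p = 0.00841), and Oas1g from 0.747, 0.87 and 0.756 to 5.61, 25.6 and 20 (3.52 ± 0.50, adjusted p = 0.0142). Uba7, the activating enzyme for ISG15, moved from 4.35, 5.48 and 4.86 to 20.4, 47.1 and 26.6 (2.48 ± 0.28, adjusted p = 0.00719). Mouse 1 had the lowest injected value in each of the 3. Among other antiviral genes 19 of 23 were called higher, with a median of 2.27. Bst2, which tethers budding virus, moved from 11.9, 9.87 and 13 to 60.5, 222 and 172 (3.46 ± 0.44, adjusted p = 0.0105). Trim21, a cytosolic antibody receptor, moved from 3.3, 3.99 and 3.05 to 12, 26.4 and 20.8 (2.30 ± 0.27, adjusted p = 0.00816), where the GFP mice averaged 0.42 ± 0.35 (SD, n = 4; difference not called, adjusted p = 0.0884). Nucleic acid sensors were called higher in 12 of 18 cases. Zbp1, a sensor of left-handed nucleic acid, moved from 0.506, 0.682 and 0.7 to 14.1, 52 and 45.9 (4.87 ± 0.46, adjusted p = 0.00399). The endosomal RNA receptor Tlr7 moved less, from 2.23, 2.07 and 1.94 to 5.06, 9.19 and 10.4 (1.70 ± 0.25, adjusted p = 0.0158). Oas1g and Zbp1 averaged 0.791 and 0.629 on the uninjected sides, so the level filter fixed their direction.

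Over these 7 interferon lists 78 of 104 tested genes were called higher and 0 lower. The count was 89 without the injected library of mouse 1 and 51 without that of mouse 2. It was 24 without the injected library of mouse 3, and 20, 22 and 23 without the uninjected libraries of mice 1, 2 and 3. The IRG and GBP families gave 7 to 10 and 8 to 10 calls in these fits, while the Ifit, Oas and ISG15 genes gave 1 to 17, the other antiviral genes 0 to 21 and the sensors 1 to 14. The motif GAAANNGAAA was present in 34.0% of the promoters of genes called higher and risen over 4-fold (48 of 141 with a RefSeq window). It was present in 17.2% of all called higher, 4.62% of called lower and 3.86% of all tested genes with a window (11402). The motif TTCNNNGAA, known as a STAT element, was present in 16.3%, 13.3%, 5.78% and 8.28%.

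**Figure D2:**
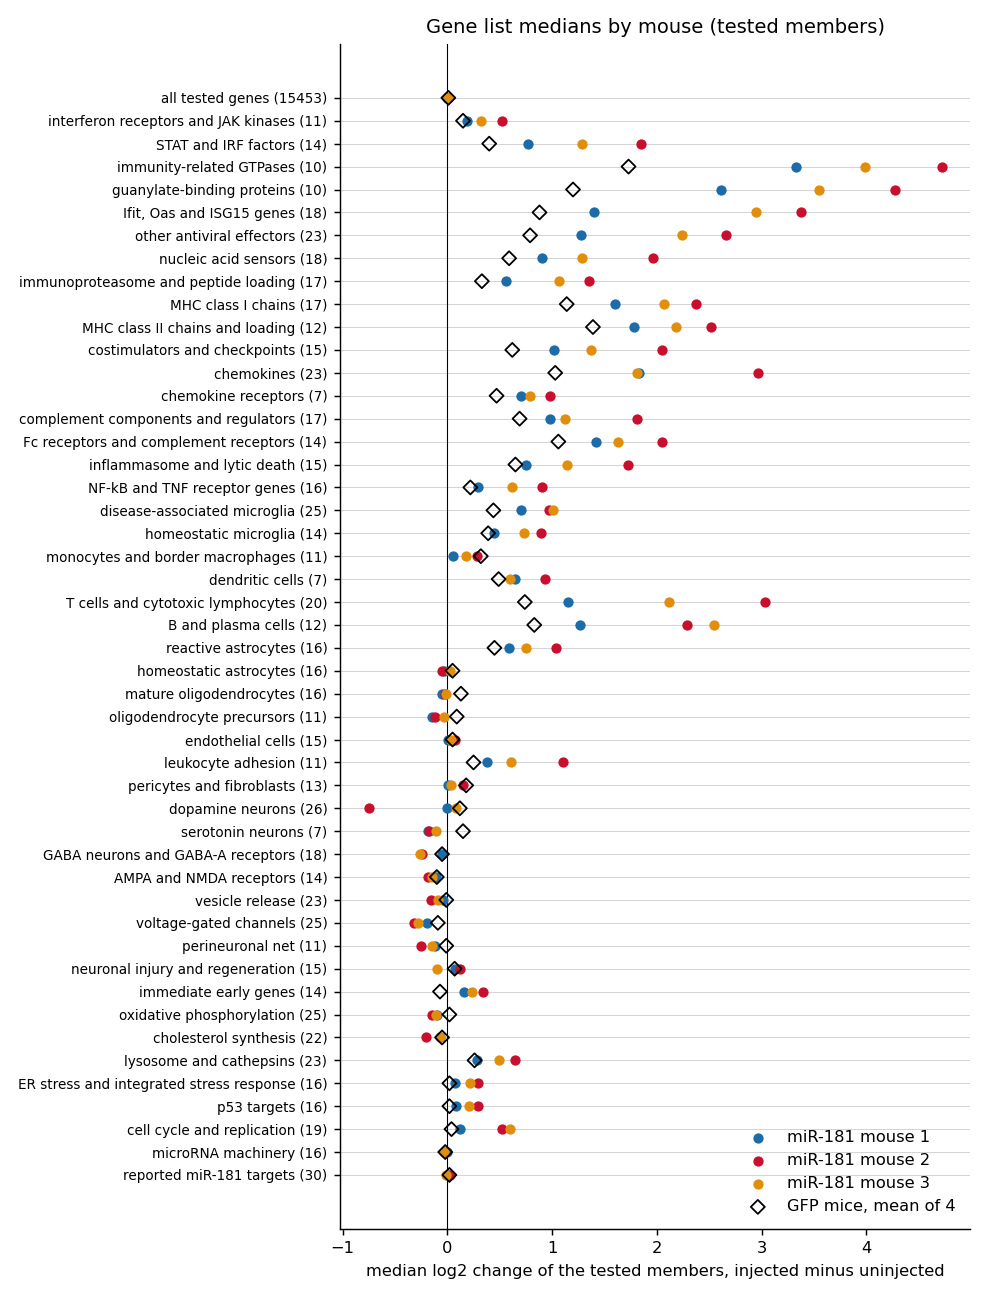
Each row is a gene list with its number of tested members, and the x axis is their median log2 change (injected minus uninjected). Circles are the 3 miR-181 mice and open diamonds the GFP mice (median over the same members of their mean change in 4 mice); the IRG family reaches 3.33 to 4.72 in the miR-181 mice, and the dopamine list lies at 0.00, -0.75 and 0.08.

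Antigen presentation rose from the proteasome to the cell surface, with 44 of 61 tested genes called higher and 0 lower. Leaving out 1 library gave 45 (injected mouse 1), 34 (injected mouse 2) and 21 to 23 (any other). Of 17 proteasome and peptide loading genes 11 were called, and 4 without injected mouse 3 or any uninjected library. Psmb8, an inducible proteasome subunit, was at 8.16, 6.61 and 8.11 and rose to 63.8, 179 and 121 (log2 change 3.79 ± 0.34, limma adjusted p = 0.00331). Tap1, the peptide transporter, rose from 4.55, 3.91 and 4.15 to 39.6, 99 and 61 (3.74 ± 0.30, adjusted p = 0.0027). Nlrc5, the transactivator of MHC class I, rose from 1.35, 0.732 and 2.09 to 21.4, 53.2 and 37.8 (4.30 ± 0.38, adjusted p = 0.00319). In all 3 genes mouse 2 was highest on the injected side.

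Of 17 MHC class I chain genes 12 were called higher, with a median of 2.02, and 7 to 13 with 1 library left out. H2-K1, a classical class I chain, rose from 64.5, 62.4 and 79.5 to 430, 1216 and 766 (3.42 ± 0.34, limma adjusted p = 0.00496). Class I genes are close copies of each other, and reads may be split between them. Class II, which presents to CD4+ T cells, was called higher in 10 of 12 genes, with a median of 2.06. Cd74, the invariant chain, rose from 16.3, 17.1 and 34.2 to 462, 853 and 551, and H2-Aa, a class II alpha chain, from 9.72, 7.46 and 16 to 176, 313 and 216 (4.37 ± 0.30, adjusted p = 0.00225). The change of Cd74 was 4.79 ± 0.33 (adjusted p = 0.00225). In the GFP mice H2-Aa changed by 4.98 ± 0.87 and Cd74 by 5.04 ± 0.62 (SD, n = 4). The difference between the sets was -0.60 ± 0.51 for H2-Aa and -0.25 ± 0.42 for Cd74 (SE, adjusted p = 0.632 and 0.83).

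Costimulators and checkpoints were called higher in 11 of 15 tested genes, in 7 without injected mouse 2 and in 2 or 3 without injected mouse 3 or an uninjected library. Cd274, which encodes the inhibitory ligand PD-L1, stood at 2.65, 2.76 and 3.34 on the uninjected and at 30.4, 76.7 and 48.7 on the injected sides (log2 change 3.85 ± 0.30, limma adjusted p = 0.0027). The GFP mice averaged 1.39 ± 0.44 (SD, n = 4), and the difference of 2.46 ± 0.33 was not called (adjusted p = 0.0707). Lag3, an inhibitory receptor, rose from 5.87, 5.06 and 7.81 to 25.9, 70.9 and 41.9 (2.70 ± 0.34, adjusted p = 0.0105). Havcr2, which encodes the receptor TIM-3, rose from 2.88, 2.48 and 2.62 to 7.08, 9.84 and 7.55 (1.44 ± 0.15, adjusted p = 0.00512). Genes were named here only if all 3 mice agreed in sign, and the sides did not overlap in any of the 908 called genes, so these traits are not particular to the checkpoint genes.

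Among signals that attract and arm leukocytes, 12 of 23 tested chemokines were called higher, with mouse medians of 1.83, 2.97 and 1.81, and 5 of 7 chemokine receptors. Leaving out 1 library gave 2 to 13 chemokine calls, fewest without uninjected mouse 1 or 2, and 0 to 5 receptor calls, fewest without uninjected mouse 2. Cxcl9, a ligand for activated T cells, rose from 0.844, 0.0681 and 0.515 to 21.8, 52.8 and 23 (log2 change 5.05 ± 0.43, limma adjusted p = 0.00303). Ccl8, a monocyte attractant, rose from 0.659, 0.95 and 1.05 to 8.23, 21.4 and 8.22 (3.11 ± 0.37, adjusted p = 0.00817). Its GFP change was 2.95 ± 1.10 (SD, n = 4; difference 0.16 ± 0.60, SE). Cxcr6, a receptor of resident T cells, rose from 0.257, 0.315 and 0.175 to 2.49, 9.61 and 2.8 (2.63 ± 0.47, adjusted p = 0.0265), with mouse 2 far above the others. On the uninjected sides Cxcl9, Ccl8 and Cxcr6 averaged 0.476, 0.887 and 0.249, so the level filter fixed their direction. The counts and medians of both lists are to be read with this limit.

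Of 17 complement genes 9 were called higher, 13 without injected mouse 1 and 4 without uninjected mouse 1 or 2. C3, the central component, rose from 3.07, 2.28 and 2.08 to 29.6, 59.3 and 38.1 (log2 change 3.80 ± 0.25, limma adjusted p = 0.00225). C1qc, of the classical pathway and made by microglia, rose from 75.1, 78.3 and 74.6 to 208, 395 and 279 (1.90 ± 0.21, adjusted p = 0.00595). Receptors for antibody and complement were called in 10 of 14 cases. Itgax, an integrin of dendritic cells and activated microglia, rose from 0.508, 0.511 and 0.579 to 10.2, 24 and 13.4 (3.90 ± 0.29, adjusted p = 0.00249). Its uninjected mean was 0.533, so the level filter fixed its direction. Fcgr2b, the inhibitory Fc receptor, rose from 4.63, 5.88 and 5.84 to 21.9, 39.1 and 28.6 (2.32 ± 0.21, adjusted p = 0.00331). The receptor list also gave 10 calls without the injected library of mouse 1 or 2, and 6 or 7 without any other library.

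Inflammasome and lytic death genes gave 8 calls among 15, 5 with mouse as a block and 0 to 10 with 1 library left out (0 without uninjected mouse 1 or 2). Casp1, the protease that matures interleukin 1 beta, rose from 1.82, 1.43 and 2.05 to 5.57, 11.3 and 8.54 (log2 change 1.94 ± 0.25, limma adjusted p = 0.0111). Gsdmd, the pore former of pyroptosis, went from 8.02, 5.71 and 9.37 to 17.1, 29.5 and 19.8 (1.45 ± 0.24, adjusted p = 0.0212), but was not called with the block (adjusted p = 0.0521). The cytokine Il1b fell below the level filter. NF-kB and TNF receptor genes gave 4 calls among 16, with a median of 0.69. Tnfrsf1b, a TNF receptor, rose from 3.24, 3.52 and 4.17 to 7.06, 12.4 and 10.2 (1.30 ± 0.21, adjusted p = 0.0194). The 4 calls became 11 without the injected library of mouse 1, 3 without that of mouse 2 and 0 without any of the other 4 libraries. Over all 6 lists of chemokines, complement, receptors, inflammasome and NF-kB genes, 48 of 92 tested genes were called higher and 0 lower, and 12 (without uninjected mouse 2) to 62 (without injected mouse 1) higher with 1 library left out.

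**Figure D3:**
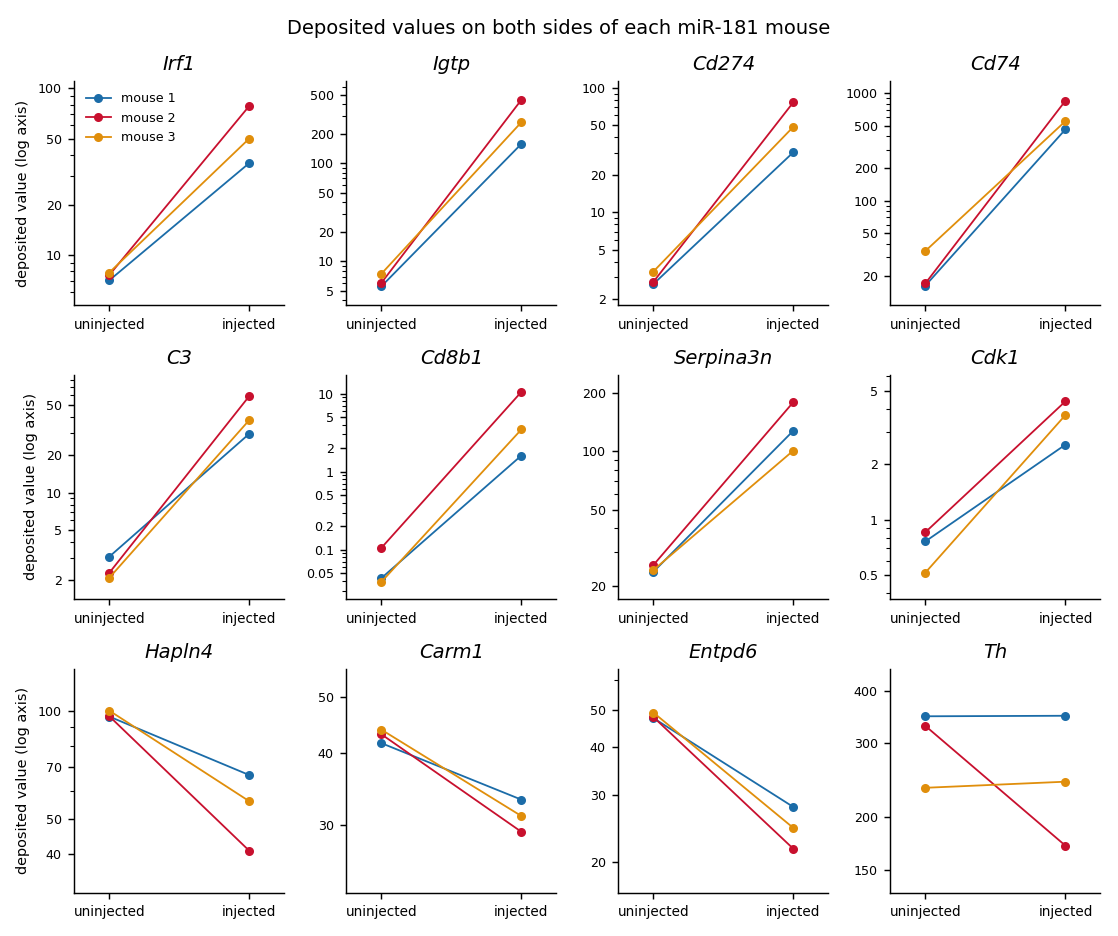
Each panel is a gene, with the deposited value on a log y axis and the uninjected and injected side on the x axis; lines join the sides of a mouse. By the rule that named them, the immune genes rise in all 3 mice and Hapln4, Carm1 and Entpd6 fall in all 3. Th, shown whatever its change, is clearly lower on the injected side in mouse 2 only, at 171 against 330.

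Markers of glia and leukocytes moved with these genes, and their part in the results above was not tested. Genes of disease-associated microglia, a state described around neurodegeneration, were called higher in 20 of 25 cases, with a median of 0.97. Gpnmb, a glycoprotein of phagocytic microglia, rose almost equally in all mice, from 1.95, 1.78 and 1.62 to 12.7, 13.3 and 17.1 (log2 change 2.69 ± 0.14, limma adjusted p = 0.00225). Clec7a, a receptor for fungal glucan, rose from 0.55, 1.37 and 1.07 to 16.2, 19.9 and 20.1 (3.72 ± 0.22, adjusted p = 0.00225). These differ from most called genes in that mouse 2 did not lead. Cst7, a protease inhibitor, did follow the common order, from 0.341, 0.447 and 0.929 to 19, 48.1 and 29.6 (4.87 ± 0.35, adjusted p = 0.00225). Clec7a and Cst7 averaged 0.994 and 0.573 on the uninjected sides, so the level filter fixed their direction. Spp1, another gene of this state, had a log2 change of -0.56 and was not called.

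Homeostatic microglia genes were called higher in 9 of 14 cases, with a median of 0.73, and their summed value ran from 414 to 439 on the uninjected and from 659 to 886 on the injected sides. Cx3cr1, the fractalkine receptor, rose from 33.5, 36.5 and 33.5 to 54.7, 72.5 and 58.3 (log2 change 0.82 ± 0.11, limma adjusted p = 0.0109). Csf1r, the receptor on which microglia depend, rose from 70.5, 67.3 and 65.2 to 118, 162 and 121 (0.96 ± 0.12, adjusted p = 0.00897). P2ry12, a purine receptor of resting microglia, had a change of 0.21 and was not called. Leaving out 1 library gave 1 to 9 calls for this list and 9 to 20 for the disease-associated list.

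Lymphocyte markers started near the floor. The 26 genes of the T cell and cytotoxic list summed to 23.2 to 26.5 on the uninjected sides and, in mice 1, 2 and 3, to 64.1, 253 and 110 after injection. Of 20 tested members 10 were called higher and 0 lower, with mouse medians of 1.15, 3.03 and 2.12 and a GFP median of 0.74 over the same 20 genes, of which 7 passed the level filter for the comparison with GFP. A member averaging below 1 on the uninjected sides could pass the level filter only through higher injected values. Its direction was thus fixed by the filter, and the absence of falls and the list medians are to be read with this limit. Cd8b1, a coreceptor chain of cytotoxic T cells, was at 0.0435, 0.106 and 0.0389 and at 1.61, 10.5 and 3.47 (log2 change 3.00 ± 0.56, limma adjusted p = 0.0314). Cd3g, a chain of the T cell receptor complex, was at 0.131, 0.193 and 0.372 and at 3.22, 19.3 and 6.76 (3.49 ± 0.56, adjusted p = 0.0208). Mouse 2 stood well above the others for both, and each call was kept in 2 of the 6 fits with 1 library left out. The list had 18 calls without the injected library of mouse 1, 6 without that of mouse 2, and 0 or 1 without any other library. Ifng, Prf1 and Gzma were among 6 members below the level filter.

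B and plasma cell markers summed to 184 to 282 on the uninjected sides and to 1044, 5146 and 4347 on the injected sides, and 6 of 12 tested genes were called higher. Jchain, the joining chain of secreted antibody, rose from 2.51, 2.51 and 7.29 to 33.5, 139 and 162 (log2 change 4.47 ± 0.65, limma adjusted p = 0.0147). Igkc, the kappa constant region, rose from 47.3, 55.7 and 82.3 to 749, 4407 and 3239 (5.19 ± 0.62, adjusted p = 0.00841). The median of the 12 tested genes was 1.91, and 0.83 in the GFP mice, which rose as well. The difference between the sets was 1.41 ± 0.87 for Jchain and 0.50 ± 1.39 for Igkc (SE), and neither was called (limma adjusted p = 0.494 and 0.903). Of the 17 members 5 were below the level filter. With 1 library left out this list gave 8 calls (without injected mouse 1), 3 (without injected mouse 2) and 0 to 2 (without any other). Of 10 neutrophil markers only Csf3r passed the filter, with a log2 change of 1.59 ± 0.16, and it is also expressed by microglia; the list summed to 8.41 to 9.39 and to 20 to 31.3. Monocyte and border macrophage genes gave 2 calls among 11: Ly6c2, a marker of inflammatory monocytes, rose from 1.04, 0.935 and 1.22 to 6.92, 29.4 and 43 (3.77 ± 0.60, adjusted p = 0.0194), and Plac8, a gene of myeloid cells, by 3.28 ± 0.66 (adjusted p = 0.0382). Plac8 averaged 0.32 on the uninjected sides, so the level filter fixed its direction. The list gave 4 calls without injected mouse 1, 1 without injected mouse 2 and 0 without any other library. Mrc1 and Cd163, genes of border macrophages, had changes of 0.42 and 0.03 and were not called. Dendritic cell genes gave 3 calls higher and 1 lower among 7, the lower being Flt3, a cytokine receptor, at -0.45, which was not called with mouse as a block. Both counts were 0 when any library but injected mouse 1 was left out.

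Reactive astrocyte genes were called higher in 9 of 16 cases, with a median of 0.85, and summed to 635 to 680 and to 1069 to 1527. Gfap, the intermediate filament of reactive astrocytes, rose from 456, 424 and 357 to 671, 1005 and 770 (log2 change 0.97 ± 0.16, limma adjusted p = 0.0206). Serpina3n, a protease inhibitor, rose from 23.8, 25.8 and 24.3 to 128, 180 and 101 (2.41 ± 0.19, adjusted p = 0.0027). Leaving out 1 library gave 2 to 10 calls for this list. Its GFP median over the same genes was 0.45. The difference between the sets was 0.23 ± 0.19 for Gfap and 0.71 ± 0.40 for Serpina3n (SE), and neither was called (limma adjusted p = 0.629 and 0.45). Among 16 homeostatic astrocyte genes the water channel Aqp4 alone was called (6.25%, against 4.39% of all tested genes called higher). It went from 196, 156 and 186 to 232, 252 and 252 (0.46 ± 0.09, adjusted p = 0.034), but was not called with mouse as a block (adjusted p = 0.0594). Among 16 oligodendrocyte genes Ugt8a, an enzyme of myelin lipid synthesis, alone was called (6.25%, against 1.49% of all tested genes called lower). Its change was -0.24 ± 0.04 (adjusted p = 0.0265, and 0.0584 with the block). Both were called in 1 of the 6 fits with 1 library left out, that without injected mouse 1, where 2 homeostatic astrocyte genes were called lower as well.

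Oligodendrocyte precursor genes (11), endothelial genes (15) and pericyte and fibroblast genes (13) gave 0 calls with limma, with 1, 2 and 0 genes at an unadjusted p under 0.05 (23.5% over all genes) and medians of -0.05, 0.04 and 0.05. Without injected mouse 1, 1 endothelial gene was called. Adhesion genes that leukocytes and vessels use to meet were called in 4 of 11 cases. Icam1 rose from 3.3, 3.5 and 3.98 to 9.11, 19.5 and 12.5 (log2 change 1.73 ± 0.25, limma adjusted p = 0.0147), and its partner Itgal, an integrin chain of leukocytes, from 0.513, 0.332 and 0.393 to 3.61, 12 and 7.38 (3.02 ± 0.39, adjusted p = 0.0105). Itgal averaged 0.413 on the uninjected sides, so the level filter fixed its direction. The 4 calls became 8 without injected mouse 1, 3 without injected mouse 2 and 0 without any other library. Over the 14 cell marker and adhesion lists there were 63 calls higher and 2 lower among 185 genes, 13 to 81 and 0 to 4 with 1 library left out, and 55 and 1 with mouse as a block.

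Over 9 lists of neuronal genes 9 of 153 tested genes were called lower and 1 higher, where 1.49% and 4.39% of all tested genes were. Median centring gave 15 lower and 1 higher. The lower calls became 21 without injected mouse 1, 6 without injected mouse 2 and 0 without any other library. The voltage-gated channel list held 4 of the calls among 25 genes, with a median of -0.23 (GFP median -0.09), and 16 of the 25 had an unadjusted p under 0.05, against 23.5% of all tested genes; it gave 8 calls without injected mouse 1. Hcn2, a pacemaker channel, went from 176, 176 and 169 on the uninjected to 144, 130 and 144 on the injected sides (log2 change -0.32 ± 0.05, limma adjusted p = 0.0224). Kcnab3, a potassium channel subunit, went from 70, 71 and 73.7 to 57.3, 38 and 44.8 (-0.63 ± 0.14, adjusted p = 0.0455; 0.0566 with mouse as a block). The sodium channel Scn8a, also called, had a change of -0.47.

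At synapses, Grm5, a metabotropic glutamate receptor, fell from 35.1, 35.9 and 38.7 to 27.3, 22.3 and 24.3 (log2 change -0.56 ± 0.08, limma adjusted p = 0.0161). Grm5 was the only call among 14 glutamate receptor and transporter genes (7.14%, against 1.49% of all tested genes called lower). Vamp1 and Sv2b, vesicle proteins, were the calls among 23 release genes (8.7%, against the same 1.49%). Vamp1 went from 469, 514 and 574 to 394, 292 and 363 (-0.58 ± 0.12, adjusted p = 0.0435; 0.0581 with mouse as a block), while the GFP mice averaged -0.03 ± 0.09 (SD, n = 4; difference -0.55 ± 0.12, adjusted p = 0.125). Sv2b, at -0.55 ± 0.12, also missed with the block (adjusted p = 0.0727). Hapln4, a link protein of perineuronal nets around fast-spiking neurons, fell from 96.3, 96.5 and 100 to 66.3, 40.9 and 56.1 (-0.86 ± 0.16, adjusted p = 0.0293). It was the only call among 11 net genes (9.09%, against 1.49%), and its GFP mean was -0.09 ± 0.13 (SD, n = 4; difference -0.78 ± 0.15, adjusted p = 0.105). Each of these synaptic and net genes was called in 1 or 2 of the 6 fits with 1 library left out.

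Dopamine neuron genes gave 0 calls with limma among 26, with 2 at an unadjusted p under 0.05 (23.5% over all genes), and the mice did not move alike. Medians of the list were 0.00, -0.75 and 0.08 in mice 1, 2 and 3, and 0.12 in the GFP mice. Th stood at 348, 330 and 235 on the uninjected and at 349, 171 and 243 on the injected sides (log2 change -0.30 ± 0.26, adjusted p = 0.55). Slc6a3 stood at 434, 433 and 273 and at 441, 173 and 290 (-0.40 ± 0.34, adjusted p = 0.527). Slc18a2, the vesicular monoamine transporter, stood at 119, 119 and 94.8 and at 117, 38.2 and 73.4 (-0.67 ± 0.36, adjusted p = 0.321). Injected mouse 2 was the lowest library for all 3 genes, and uninjected mouse 3 was lower than the other uninjected sides. Without injected mouse 1 the list had 1 call lower. Serotonin neuron genes, which a dissection of the midbrain can include, gave 0 calls among 7, with 2 at an unadjusted p under 0.05, and 1 lower with median centring. Injury genes gave 1 call higher among 15 (6.67%), near the 4.39% of all tested genes. The call was Csf1, a growth factor for microglia that injured neurons make. It went from 29, 24.5 and 22.9 to 36.8, 48.5 and 40 (0.70 ± 0.12, adjusted p = 0.0261, and 0.052 with mouse as a block). Immediate early genes gave 0 calls among 14, with 4 at an unadjusted p under 0.05 (23.5% over all genes), and 3 calls higher without injected mouse 1.

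Among metabolic and stress lists, lysosomal genes were called higher in 16 of 23 cases, with a median of 0.50. Ctss, a cathepsin of antigen presenting cells, rose from 121, 114 and 123 to 422, 751 and 513 (log2 change 2.19 ± 0.19, limma adjusted p = 0.00303). Ctsd, a broadly expressed cathepsin, rose from 447, 462 and 455 to 726, 1072 and 920 (0.97 ± 0.13, adjusted p = 0.0115). With 1 library left out the list gave 18 (injected mouse 1), 10 (injected mouse 2) and 2 to 4 calls (any other). All 25 tested oxidative phosphorylation genes had a change below 0, from -0.27 to -0.01. Of all 15453 tested genes 7857 had a change above 0. With limma 15 of the 25 had an unadjusted p under 0.05 (23.5% over all genes). Yet 2 were called lower (8%, against 1.49% of all tested genes), 1 with mouse as a block and 6 with median centring. Cox5b, a subunit of cytochrome oxidase, fell from 715, 728 and 667 to 615, 592 and 573 (-0.24 ± 0.05, adjusted p = 0.0431). The list's GFP median was 0.02, and it gave 5 calls without injected mouse 1 and 0 without any other library. Hsd17b7, an enzyme of cholesterol synthesis, was the only call among 22 genes of that pathway (4.55%, against 1.49% of all tested genes called lower). It went from 15.6, 16.9 and 16.1 to 11.6, 6.71 and 8.83 (-0.84 ± 0.18, adjusted p = 0.0435, and 0.0636 with the block). Cox5b and Hsd17b7 were each called in 1 of the 6 fits with 1 library left out.

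Cell cycle genes were called higher in 3 of 19 cases (15.8%, against 4.39% of all tested genes). Their mouse medians were 0.12, 0.52 and 0.60, with a GFP median of 0.04 over the same genes. Cdk1, the mitotic kinase, rose from 0.763, 0.856 and 0.517 to 2.55, 4.38 and 3.69 (log2 change 1.72 ± 0.24, limma adjusted p = 0.0139). It averaged 0.712 on the uninjected sides, so the level filter fixed its direction. Top2a, a topoisomerase of dividing cells, rose from 1.23, 1.74 and 1.72 to 3.17, 7.33 and 4.49 (1.35 ± 0.29, adjusted p = 0.0445). Mcm3, of the replication helicase, rose from 3.06, 3.34 and 3.02 to 5.32, 8.74 and 5.41 (0.91 ± 0.20, adjusted p = 0.0466). As in all called genes, the sides did not overlap. In the GFP mice Cdk1 averaged -0.18 ± 1.01 and Top2a -0.13 ± 0.77 (SD, n = 4), and the differences were not called (adjusted p = 0.179 and 0.18). The 3 calls became 5 without injected mouse 1, 1 without injected mouse 2 and 0 without any other library. Endoplasmic reticulum stress genes gave 0 calls with limma among 16, with 4 at an unadjusted p under 0.05 (23.5% over all genes). The p53 targets gave 1 call higher among 16 (6.25%), near the 4.39% of all tested genes. It was Trp53inp1 (0.62 ± 0.11, adjusted p = 0.0288, and 0.0604 with mouse as a block). Without injected mouse 1 these lists gave 4 and 5. Over these 6 metabolic and stress lists and the microRNA machinery list, there were 20 calls higher and 3 lower among 136 genes. With 1 library left out there were 2 to 32 and 0 to 11, with mouse as a block 19 and 1, and with median centring 20 and 7.

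The design also asks how genes that miR-181 could bind behaved. Tested genes with an annotated 3′ UTR numbered 14275. With no seed match the median log2 change was 0.02 (10870 genes), with 7-base matches only it was -0.04 (2521), with 1 match of 8 bases -0.09 (795) and with more than 1 such match -0.14 (89). The share called lower was 0.819%, 2.7%, 6.29% and 11.2% in these classes, against 1.49% of all tested genes. Each mouse had the same order: from none to more than 1 match of 8 bases, medians went from 0.00 to -0.11 in mouse 1, from 0.03 to -0.23 in mouse 2 and from 0.04 to -0.19 in mouse 3. The GFP medians, over the 10611, 2468, 775 and 88 genes also tested there, were 0.01, -0.02, -0.02 and -0.06. Genes with more matches have longer 3′ UTRs, with median lengths of 918, 2325, 2494 and 3858 bases, and the part of length was not tested. Read from the calls, 60 of 217 genes called lower with a 3′ UTR held an 8-base match (27.6%), against 5.51% of genes called higher and 5.88% of genes not called. Their median 3′ UTR lengths were 1501, 840 and 1209 bases.

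**Figure D4:**
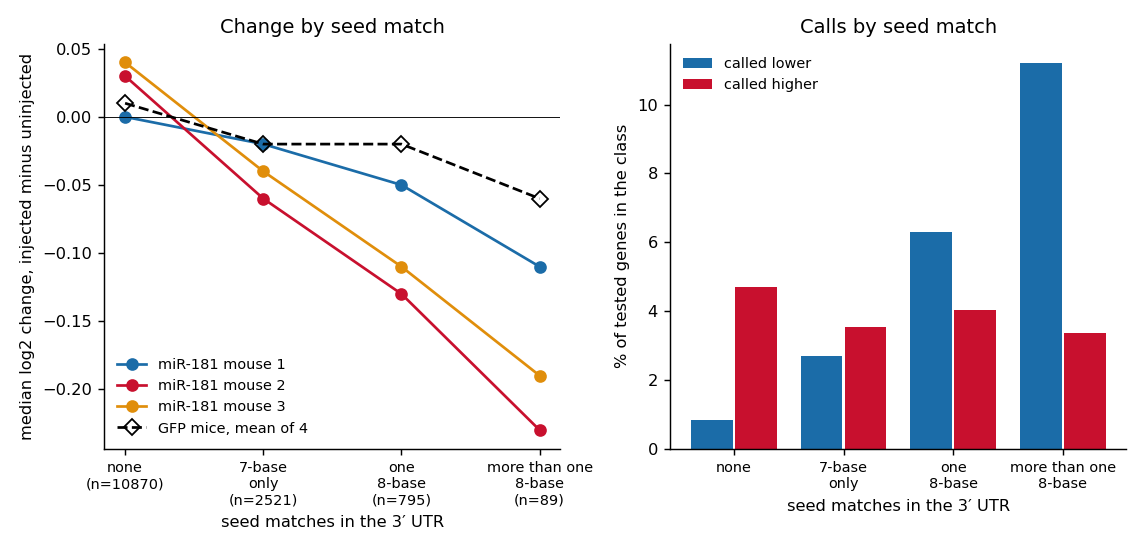
Left, the median log2 change (injected minus uninjected) by class of seed match in the 3′ UTR, for the 3 miR-181 mice and the mean of the 4 GFP mice; medians fall from 0.00, 0.03 and 0.04 without a match to -0.11, -0.23 and -0.19 with more than 1 match of 8 bases. Right, bars give the percent of tested genes in each class called lower (blue, 0.819% to 11.2%) and called higher (red, 3.37% to 4.7%).

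Among the genes called lower, those with the most 8-base matches are described next. Entpd6, with the sites printed above, stood at 47.6, 47.9 and 49.2 on the uninjected and at 27.9, 21.7 and 24.6 on the injected sides (log2 change -0.96 ± 0.09, limma adjusted p = 0.00401), with a call in all 6 fits that left out 1 library. Trim2, a ubiquitin ligase of neurons, fell from 95.9, 99.7 and 111 to 77.3, 61.7 and 74.4 (-0.52 ± 0.10, adjusted p = 0.0301). Slitrk1, a synaptic adhesion protein, fell from 22.5, 22 and 24.2 to 15.9, 9.81 and 12.6 (-0.84 ± 0.16, adjusted p = 0.0327). Rab30, a small GTPase of the Golgi with 8596 bases of 3′ UTR, fell evenly, from 20.8, 20.1 and 19.9 to 15.9, 15.7 and 15.3 (-0.37 ± 0.06, adjusted p = 0.0209). Asah2, a ceramidase, fell by 0.82 ± 0.16 (adjusted p = 0.0382), and Mtx3, a protein of the outer mitochondrial membrane, by 0.82 ± 0.17 (adjusted p = 0.0396; 0.0553 with mouse as a block). Except for Entpd6, these genes were called in 1 or 2 of the 6 fits with 1 library left out.

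In some genes the match lies in a repeat. Gm14288, a predicted gene, had 13 matches of 8 bases in its annotated 3′ UTR, and 8 of the 12 gaps between them measured 84 bases. It went from 10.2, 11.8 and 15.4 to 7.77, 5.11 and 5.74 (log2 change -0.95 ± 0.20, limma adjusted p = 0.0403; 0.0711 with the mouse block). Neighbouring copies at chr2:175791101-175791130 and chr2:175791017-175791046 (GRCm38, minus strand) show how alike the repeats are around the match, in capitals.
Gm14288 repeat a: gagaaaccctaTGAATGTAaccactgtggt
Gm14288 repeat b: gacgaaccataTGAATGTAaccactgtgtt

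Counted in coding sequences, 95 tested genes had at least 3 matches of 8 bases. Their median log2 change was -0.21, and 10 of them (10.5%), predicted or zinc finger genes, were called lower, against 1.45% of 13942 genes with none. In the GFP mice the medians of these classes, over the genes also tested there, were -0.08 and 0.01, so a smaller fall was present there too. The 10 were Gm14391, Gm6710, Zfp967, Zfp971, Gm4724, Gm4631, Gm14305, Gm14418, Zfp37 and Gm14410, named after their values were seen, with changes between -0.28 (Gm14391) and -1.07 (Gm6710). Of the 95 genes 37 had no match in the 3′ UTR, with a median of -0.15 and 1 call. Zinc finger genes have near copies, so reads may be shared between them.

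Among 30 tested genes reported as miR-181 targets elsewhere, 3 were called higher and 3 lower, and the median was 0.00. These are 10% each, against 4.39% and 1.49% of all tested genes. Carm1 went from 41.6, 43.1 and 43.9 to 33.2, 29.2 and 31.1 (log2 change -0.46 ± 0.06, limma adjusted p = 0.0128). Cbx7 went from 43.8, 48.7 and 43.2 to 34.1, 32.7 and 34.3 (-0.42 ± 0.06, adjusted p = 0.0158). In the GFP mice they changed by 0.05 ± 0.10 and 0.09 ± 0.05 (SD, n = 4), and neither difference was called (both adjusted p = 0.0884). Tgfbr1, a receptor of transforming growth factor beta with a pair of 8-base matches, rose instead, from 13, 12.7 and 14.7 to 21.8, 26.1 and 21.2 (0.75 ± 0.10, adjusted p = 0.0126). The regulators of apoptosis Bcl2 and Xiap had changes of 0.06 and -0.10 and were not called. Leaving out 1 library gave 0 to 5 calls higher and 0 to 4 lower, most without injected mouse 1. MicroRNA machinery genes gave 0 calls with limma among 16, with 4 at an unadjusted p under 0.05 (23.5% over all genes).

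Set against the change in the 4 GFP mice, 4 of 14824 genes tested in both sets were called (0.027%), and none of them belongs to an immune list. Entpd6 differed by -0.95 ± 0.10 (SE, limma adjusted p = 0.0488), with a GFP change of -0.01 ± 0.12 (SD, n = 4). Chchd10, a mitochondrial protein, stood at 368, 367 and 348 and at 249, 181 and 197, a change of -0.80 that differed from the GFP change of 0.06 by -0.87 ± 0.10 (adjusted p = 0.0488). Lamp5, a membrane protein of some neurons, stood at 23.3, 19 and 64.3 and at 13.5, 10.3 and 34.5. Its values in mouse 3 were high on both sides, so it was not called between the sides (adjusted p = 0.424), but it was with mouse as a block (0.0102), and the difference between the sets was -0.82 ± 0.09 (adjusted p = 0.0488). Gm8430, a predicted gene, was at or below 0.00964 on the uninjected and at 12.2, 23.5 and 8.64 on the injected sides, and differed by 4.32 ± 0.30 (adjusted p = 0.00481). The level filter fixed the direction of its miR-181 change. A value near 0 in such a file can be a failed estimate, so the size of this difference is uncertain. Leaving out any 1 of the 4 GFP mice, that with the pituitary hormones or another, gave 1 call. Leaving out miR-181 mouse 1, 2 or 3 gave 322, 1 and 2. Chchd10, Lamp5 and Gm8430 were named after their values were seen.

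The 5 genes called lower by more than 2-fold included, beside Gm6710, the predicted genes Gm21830, Gm48848 and Gm48926, named after their values were seen. Gm21830 was at 2.82, 4.77 and 7.78 on the uninjected sides and listed at 0 on the injected sides of all 3 mice. Gm48848 was at 5.19, 8.51 and 8.63, and on the injected sides at 2.07e-07 in mouse 2 and listed at 0 in the others. Gm48926 was at 1.33, 4.42 and 1.2 and likewise listed at 0. A value of 0 in such a file can be a failed estimate, so no fold is given.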

How the data were processed

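Stranded mRNA libraries were prepared, per the labels' protocols. The submitters' processing notes name kallisto 0.43.1, sleuth 0.30.0 and the GRCm38 build; how transcripts were combined into genes is not given in the sources used here. The authors deposited a normalized signal per gene and library, in tables of 56305 rows, of which 36660 held values. Another 395 rows repeating a gene were left out, leaving 36265 genes. The unit, TPM divided by a size factor, was inferred from the sums; the planned log-scale test was kept. The deposited statistics were not used, and depth cannot be recovered, so values carry no counting intervals.

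Genes averaging 1 or more across the 6 libraries were tested as log2(value + 0.5), which understates changes of low genes, with limma 3.58.1 (R 4.3.3), a trend of variance with intensity, and a Benjamini-Hochberg threshold of 0.05. The main fit had no term for mouse. A gene averaging below 1 on 1 side passes the filter only through higher values on the other, which fixes its direction. The per-mouse changes of 3 miR-181 and 4 GFP mice were compared likewise. The fit was tested on simulated data. Alternatives were other pseudocounts, filters, median centring, no trend, mouse as a block, each library left out and, chosen after seeing the data, both sides of a mouse left out. Per the labels each number is 1 animal with both its sides, whose deviations from the group mean correlated at 0.183, 0.14 and 0.257, so the mouse numbers pair them.

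The comparison and all 48 gene lists (822 symbols) were chosen with earlier results of these data known. C4a had no values. Named genes were up to 3 called members per list with the smallest p and the same sign in each mouse (otherwise the member with the smallest p), the 10 called lower genes with the most seed matches, the 10 largest falls, and Th, Slc6a3, Slc18a2, Gfap, Aif1, Cd74 and Mir181a-1hg, for which the tables held no values; the text selects from them, and names other list members with their change only. Seed matches were counted in GENCODE M21 annotation, and promoter motifs in RefSeq windows, with Python 3.11.15. Some members of the lists are not reported here by name.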

Additional observations from a re-analysis of the deposited data

Results flagged for a closer look

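The change differed between the miR-181 and the GFP mice, by a test of the difference itself, for 4 genes: Entpd6 (-0.95), Chchd10 (-0.87), Lamp5 (-0.82) and Gm8430 (4.32, log2). For Gm8430, near 0 on the uninjected sides, the level filter fixed the direction of the miR-181 change, and the size is uncertain. Among the GFP changes printed above, the fourth GFP mouse stood apart for Vamp1, at -0.17, where the others were at 0.01 to 0.02. The gap was 0.943 of the range of the 4 values. By chance about 1 group in 20 passes the threshold for such a flag, and 19 genes were examined.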

How the results depend on the processing

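No called value changed direction in any alternative. With no level filter, 268 genes were called higher and 47 lower, and without the intensity trend 395 and 54. Median centring, which moved the median of all genes to -0.06, gave 634 and 468, so that 57.5% of calls were higher in place of 74.7%. The share was 85.1% with no filter and 88% without the trend. The replicate block (mouse) gave 570 and 148. Leaving out 1 library gave 113 to 1210 calls higher and 4 to 714 lower. With both sides of mouse 2 left out there were 103 and 4 calls, and without mouse 3 only 1 and 0 (limma, with 1194 and 820 genes at an unadjusted p under 0.05), against 779 and 253 without mouse 1. The cause was not tested. For the difference between the sets, 1 gene was called with a pseudocount of 1, with no filter and with median centring, and 1 to 322 with 1 mouse left out. The median of genes with a seed match minus that of genes without was -0.075, and -0.116 with matches of 8 bases only. With the replicate block 14 of the 122 named genes lost their call. Other pseudocounts and a mean of at least 5 left the counts of calls between the sides within 1.5 times. Depth is unknown.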
